A study of Homo sapiens with 14 samples.

Results

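The heterogeneous nuclear ribonucleoproteins (hnRNPs) and their close relatives form a set of 32 genes, described here across 14 RNA-seq libraries of IMR90 cells, a line of primary human lung fibroblasts. The rule is a list of symbols and uses no measured value, although the list was drawn up with earlier results of these data known, and all 32 symbols were found among the 54628 counted in each library. It comprises 7 genes of the hnRNP A and B type, HNRNPC and its relative RALY, 4 genes of the hnRNP F and H type, 4 poly(C)-binding and KH-domain genes, 5 genes of the PTB and hnRNP L type, 3 of the hnRNP M, R and Q type, 4 of the hnRNP U and matrin type, and RBMX, TARDBP and ELAVL1. HNRNPH2 had at most 0.154 CPM in any library (CPM gives a gene's reads out of every 1000000 reads that fell on genes) and was not testable, so comparisons cover 31 genes.

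Untreated cells were sequenced as WT, with no knockdown, and as siHMGB2, with siRNA against the chromatin protein HMGB2. All other libraries came from cells made senescent with inflachromene (ICM, 10 µM for up to 6 days), a small molecule that targets HMGB proteins. These were ICM with no knockdown (4 libraries) and ICM with siRNA labelled against SRRM2, BANF1 or CTCF (siSRRM2, siBANF1, siCTCF), and every group but ICM had 2 libraries. The labels of ICM 3, ICM 4 and siCTCF are written in another form than the rest and were taken as a second set, and ICM 1-2, siSRRM2 and siBANF1 are called the first set. Each knockdown in ICM-treated cells was set against ICM from the same set, and WT served as control for ICM 1-2, ICM 3-4 and siHMGB2, so comparisons that share a control are not independent. Nothing in the labels says that replicates were separate cultures, so p-values measure the spread between these libraries, which may be technical.

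As background, hnRNPs coat nascent transcripts as RNA polymerase II makes them, bind exons and introns to repress or favour splice sites, and several follow the mRNA to the cytoplasm to set its stability or translation. Many of the genes regulate their own transcripts through exons that expose them to nonsense-mediated decay, and PTBP1 protein silences PTBP2 in this way in cells that are not neurons. In fibroblasts, ELAVL1 (HuR) protein is known to decline in replicative senescence, and PTBP1 is known to support the inflammatory secretion of senescent cells.

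Depth ran from 33561766 to 41168932 gene counts over the untreated libraries, from 39435430 to 58257456 over the first set and from 22336161 to 26779027 over the second. Small RNA genes took 3.19% to 6.06% of the total in each first-set library and at most 0.00835% elsewhere, and reads that fell ambiguously between genes ranged from 1.58% to 9.53%. The targeted genes were checked first. HMGB2 was 27.7 and 28.0 CPM in WT and 3.18 and 3.52 in siHMGB2, and CTCF was 94.9 and 91.9 in ICM 3-4 and 71.5 and 23.0 in siCTCF. SRRM2 was 238 and 112 CPM in ICM 1-2, and 76.1 and 76.4 where the label is siSRRM2. It was lowest, at 59.0 and 17.0 CPM, where the label is siBANF1. BANF1 was 13.5 and 32.7 in ICM 1-2 and 17.0 and 36.7 in the libraries labelled siBANF1, so the target was not lower there and these libraries are named by their labels only. All 13 fibroblast markers were at or above 1 CPM in every library, while the epithelial, endothelial and immune defining markers SFTPC, NKX2-1, CDH5 and CD3E were at or near 0. The markers of these other cell types were not all low: 2 of 9 epithelial genes reached 1 CPM in each library, as did 1 to 4 of 6 endothelial and 1 to 2 of 7 immune genes. The epithelial sum, mostly KRT18, was 58.4 and 54.6 CPM in WT, 33.8 and 154 in ICM 1-2 and 212 and 191 in ICM 3-4. The endothelial sum, mostly TEK, was 75.1 and 89.7 CPM in WT, 244 and 68.4 in ICM 1-2 and 16.2 and 2.96 in ICM 3-4, and the immune sum, mostly CD68, was 40.6 and 40.03, 96.0 and 59.5, and 96.6 and 106 in the same order. Summed fibroblast markers were 29282 and 38175 CPM in WT, 25612 and 5339 in ICM 1-2 and 5088 and 2528 in ICM 3-4. Summed genes of proliferation were 582 and 576 CPM in WT, 150 and 279 in ICM 1-2 and 286 and 338 in ICM 3-4. PCNA was the largest part of this sum in ICM 3-4, at 99.3 and 120 CPM, against 81.5 and 83.3 in WT. MKI67 was 0.042 and 0.158 CPM in ICM 3-4, against 32.7 and 38.8 in WT. Of the 20 genes, 18 were below WT in ICM 3-4 by log2 fold change and 2 above. These sums moved with the treatment or the library, and their part in the results was not tested. In bulk RNA, fewer cells expressing a gene and less RNA per cell cannot be told apart.

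Promoter sequence was available from RefSeq (GRCh38.p14) for 30 of the 32 genes, as 43 start sites, and windows of 250 bases before to 50 after a start were searched on both strands for 8 motifs. Shown first are the 250 bases before the start of HNRNPA2B1 and HNRNPD, which were lower in all ICM-treated libraries, and of PTBP1 and PTBP2, which went in opposite directions in ICM 3-4. Matches stand in capitals. HNRNPA2B1 shows the E2F motif TTCCCGC, bound by regulators of cell cycle genes, and the CCAAT box of the factor NF-Y. HNRNPD shows the ETS motif CCGGAAG, the letters TATAAA of the TATA box, and the motif of the factor SP1, GGGCGG. The TATAAA letters lie near the middle of the 250 bases, and whether they help place the start site was not tested. PTBP1 shows CCAAT boxes and SP1 motifs, and PTBP2 an SP1 motif, each read on either strand. The start used for PTBP2 is an internal one, so its 250 bases lie within the annotated gene, which begins at 96721784.
HNRNPA2B1, chr7:26200747-26200996, minus strand: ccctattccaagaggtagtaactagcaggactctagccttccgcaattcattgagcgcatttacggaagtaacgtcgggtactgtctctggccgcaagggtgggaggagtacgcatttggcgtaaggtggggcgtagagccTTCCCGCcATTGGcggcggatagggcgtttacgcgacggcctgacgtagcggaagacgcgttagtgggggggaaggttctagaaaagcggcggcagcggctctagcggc
HNRNPD, chr4:82373992-82374241, minus strand: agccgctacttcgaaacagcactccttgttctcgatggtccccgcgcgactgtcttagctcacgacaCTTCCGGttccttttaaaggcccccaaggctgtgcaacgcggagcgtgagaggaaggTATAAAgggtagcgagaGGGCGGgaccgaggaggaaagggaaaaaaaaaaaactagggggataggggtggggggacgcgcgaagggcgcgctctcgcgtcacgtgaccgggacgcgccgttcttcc
PTBP1, chr19:797202-797451, plus strand: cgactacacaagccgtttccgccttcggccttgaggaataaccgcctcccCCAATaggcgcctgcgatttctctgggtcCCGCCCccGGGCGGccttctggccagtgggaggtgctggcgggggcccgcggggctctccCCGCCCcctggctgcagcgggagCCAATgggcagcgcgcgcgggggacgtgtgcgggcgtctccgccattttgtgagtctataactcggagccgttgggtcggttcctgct
PTBP2, chr1:96722388-96722637, plus strand: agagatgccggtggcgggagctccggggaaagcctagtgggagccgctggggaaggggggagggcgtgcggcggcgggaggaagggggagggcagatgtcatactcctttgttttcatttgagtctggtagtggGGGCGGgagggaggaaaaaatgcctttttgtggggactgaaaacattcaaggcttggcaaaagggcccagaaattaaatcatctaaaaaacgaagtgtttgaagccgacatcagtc

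A second start site of PTBP1 lies downstream and holds 3 E2F matches in its 250 bases. Over the 43 start sites of the set, E2F was found in 13 (30.2%), against 6.55% of all 35116 RefSeq promoters and 8.13% of the 22198 protein-coding ones. CCAAT was found in 22 (51.2%), against 34.6% of all and 34.7% of protein-coding promoters, and GGGCGG in 32 (74.4%), against 45.0% and 56.3%. ETS was found in 6 (13.95%, against 10.3% and 12.8%) and TATAAA in 4 (9.30%, against 11.5% and 9.47%). The CRE motif TGACGTCA and core motifs of NRF1 and YY1 were found in 0 of the 43. Several genes have more than 1 start site, the windows of neighbouring starts can overlap, and a match is a description of letters only.

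Taken as a share of all gene counts, the 32 genes held 0.765% and 0.737% in WT and 0.666% and 0.683% in siHMGB2. The share was 0.322% in ICM 1 and 0.548% in ICM 2, 0.652% and 0.673% in ICM 3-4, and 0.671% and 0.672% in siCTCF. It was 0.529% and 0.515% in the libraries labelled siSRRM2, and 0.361% and 0.538% in those labelled siBANF1. All 10 ICM-treated libraries were below the WT libraries, and 2 of them, ICM 1 and siBANF1 1, were well below the others. These 2 also had the most reads that overlapped no annotated gene. Such reads were 16.3% of all reads in ICM 1 and 18.4% in siBANF1 1, against 2.69% to 8.87% in the other libraries. The part of this difference in the results was not tested. Levels per kilobase were taken over all annotated exons of a gene merged, from 1750 bases for PCBP1 to 22512 for HNRNPU. The order of genes therefore depends on the annotation. By this measure the highest genes in WT were HNRNPA1 at 189 CPM per kilobase, PCBP1 at 130 and HNRNPK at 126. HNRNPAB followed at 94.8 and HNRNPA2B1 at 68.6. In ICM 3-4 the order began with PCBP1 at 161, HNRNPK at 127, PTBP1 at 95.6 and HNRNPC at 87.1 CPM per kilobase, and HNRNPA1 was no longer among the first 4.

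**Figure D1:**
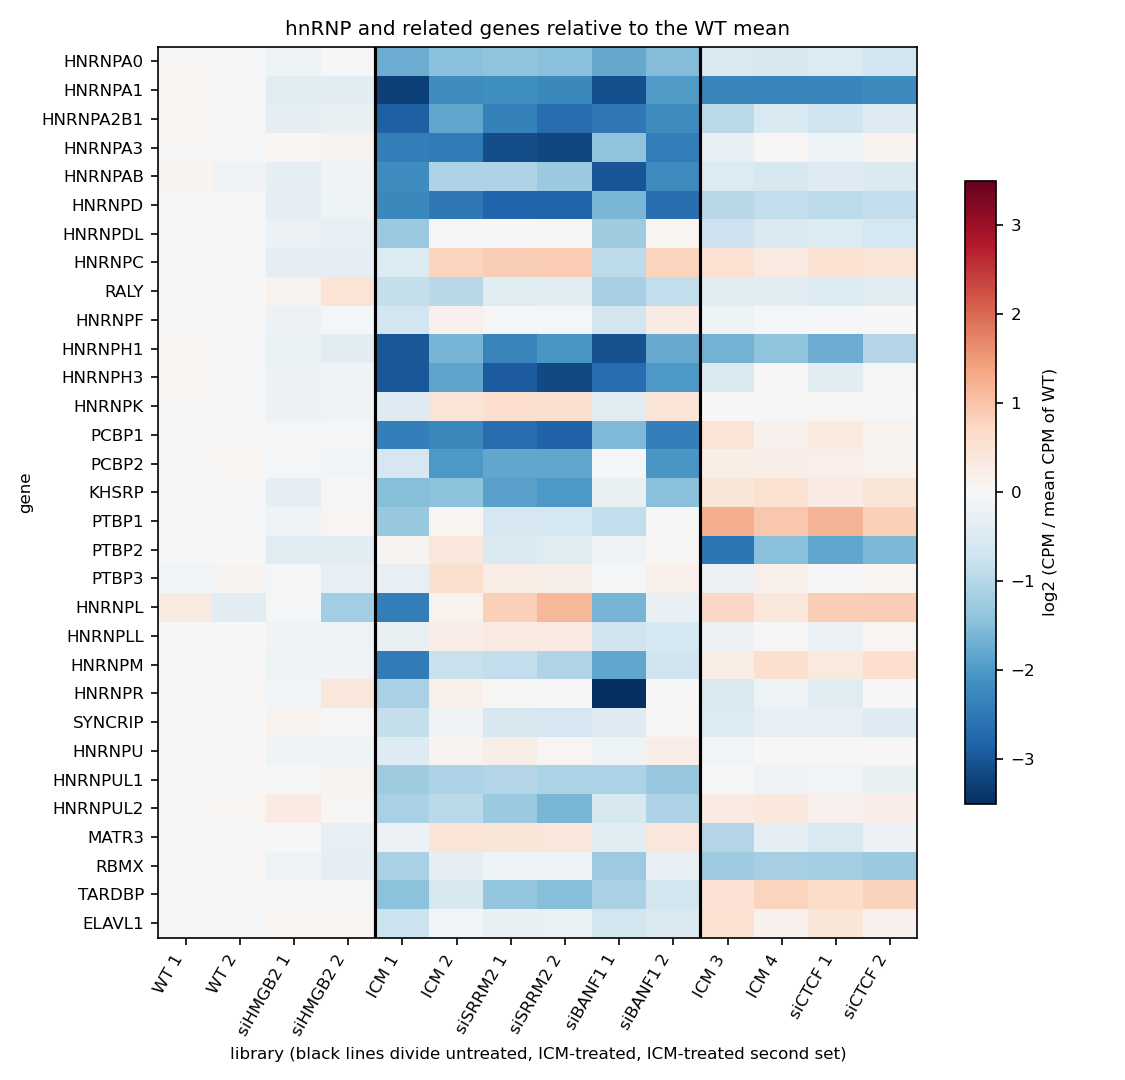
Each row is 1 of the 31 genes with counts in every library and each column a library; colour gives the log2 ratio of CPM to the WT mean, blue lower and red higher. HNRNPA1 is blue in all 10 ICM-treated libraries, ICM 1 and siBANF1 1 are the bluest columns, and PTBP1 is red and PTBP2 blue in the 4 libraries of the second set.

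Across the 10 ICM-treated and the 4 untreated libraries, 8 of the 31 genes were lower in every treated library than in any untreated one, against 8.72% of 19126 genes. These were HNRNPA0, HNRNPA1, HNRNPA2B1, HNRNPAB and HNRNPD of the A and B type, RALY, HNRNPH1 and HNRNPUL1. For HNRNPUL1 the margin was narrow, from at most 241 CPM in treated libraries to at least 244 in untreated ones. None of the 31 was higher in every treated library, against 9.23% of genes. On the TMM scale, which corrects for library composition, 12 of the 31 were lower throughout and 0 higher, against 11.0% of all genes lower and 7.12% higher. With ICM 1 and siBANF1 1 left out, 8 were lower and 1, HNRNPC, was higher, against 15.5% of all genes lower and 21.6% higher. With the second set left out, 15 were lower and 0 higher, against 12.5% and 17.0% of all genes. The 10 treated libraries include siRNA-treated cells, and WT and siHMGB2 lack a library of the second set.

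The hnRNP A and B proteins carry paired RNA recognition motifs, bind purine-rich and UAGG-like sequences and often repress exons. HNRNPA1 (chr12:54280726-54287087, plus strand), the classic antagonist of SR proteins, reached 1001 and 925 CPM in the WT libraries and 727 and 735 in siHMGB2. ICM 1-2 held 101 and 215 CPM, siSRRM2 217 and 202, and siBANF1 114 and 244. In ICM 3-4 it was 194 and 199 CPM and in siCTCF 199 and 206. The treated libraries lay far below the untreated ones with no overlap, and among them only ICM 1 and siBANF1 1 stood apart. HNRNPA1 fell by 2.48 on the log2 scale in ICM 3-4 against WT (SE 0.17, edgeR quasi-likelihood test, adjusted p = 0.000535). In ICM 1-2 against WT the difference was -2.69 (SE 0.46, edgeR adjusted p = 0.0948), which did not pass. Reads of HNRNPA1 can be split with its many copies: 76 symbols of copies held 1.77% to 2.89% of the HNRNPA1 count in untreated libraries and 5.02% to 9.34% in treated ones. With the copies added, the log2 ratio of CPM between ICM 3-4 and WT was -2.22, against -2.29 without them.

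HNRNPA2B1 (chr7:26189927-26200746), which also packages microRNAs and reads m6A, was 668 and 603 CPM in WT, 508 and 529 in siHMGB2 and 332 and 440.4 in ICM 3-4. In siCTCF it was 390.4 and 467, and in the 6 other ICM-treated libraries it ranged from 87.5 to 179 CPM. Its levels thus formed 3 tiers that did not overlap, with the second set in between. The gene fell in ICM 3-4 against WT (log2 change -0.91, SE 0.19, edgeR adjusted p = 0.00942), and the difference was -2.34 (SE 0.42, edgeR adjusted p = 0.0975) in ICM 1-2. HNRNPD (AUF1, chr4:82352498-82373991), which binds AU-rich elements and mostly promotes mRNA decay, was 172 and 165 CPM in WT, 133 and 153 in siHMGB2, 35.3 and 30.0 in ICM 1-2 and 85.5 and 92.7 in ICM 3-4. Levels were 24.5 and 24.0 CPM under the label siSRRM2, 56.0 and 27.2 under siBANF1, and 88.6 and 92.3 in siCTCF. Here too both ICM sets were below all untreated libraries and the first set was the lower. HNRNPD fell in ICM 3-4 (log2 change -1.11, SE 0.14, edgeR adjusted p = 0.00204), and differed by -2.41 (SE 0.31, edgeR adjusted p = 0.0843) in ICM 1-2.

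Of the other A and B genes, HNRNPDL, a close paralog of HNRNPD, was 258 and 254 CPM in WT and 154 and 179.5 in ICM 3-4, a fall of 0.81 on the log2 scale (SE 0.15, edgeR adjusted p = 0.00658). In the first set it followed the library and not the group, at 103 CPM in ICM 1 and 246 in ICM 2. HNRNPA0, which binds AU-rich elements, was 190.3 and 179 CPM in WT, 131 and 125 in ICM 3-4 and 55.1 and 66.7 in ICM 1-2. HNRNPAB, which binds AU-rich and purine-rich RNA, was 219 and 188 CPM in WT, 146 and 139 in ICM 3-4 and 45.0 and 97.0 in ICM 1-2. Both fell in ICM 3-4, by 0.71 and 0.70 on the log2 scale (SE 0.15 and 0.16, edgeR adjusted p = 0.00975 and 0.0138). HNRNPA3 was the exception between the sets: it was 298 and 283 CPM in WT and 239.6 and 299 in ICM 3-4, which overlapped, but 54.6 and 52.9 in ICM 1-2. All 7 genes of this type were thus below the WT mean in ICM 3-4 by log2 fold change, and 6 of the 7 passed the test, beside 55.2% of all genes called and 27.3% called lower. Of the 7, 2 passed without WT 1 and 3 without WT 2: HNRNPDL, HNRNPA0 and HNRNPAB were lost in both cases and HNRNPA2B1 without WT 1. HNRNPDL and HNRNPAB were also lost in the fit to all 14 libraries (edgeR adjusted p = 0.116 and 0.0946).

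**Figure D2:**
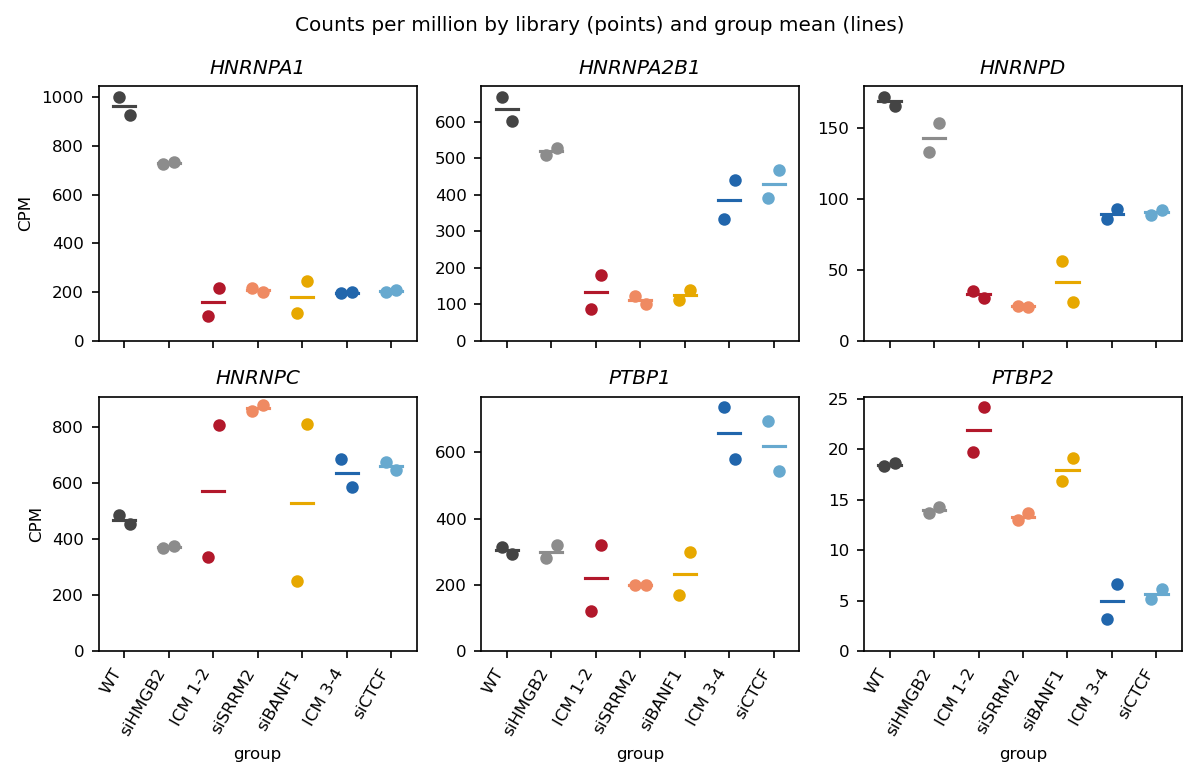
Points are CPM of single libraries and lines are means of the 2 libraries of each group, on linear axes from 0. HNRNPA1, HNRNPA2B1 and HNRNPD are lower in every ICM-treated library than in the untreated ones, whereas PTBP1 is highest and PTBP2 lowest in ICM 3-4 and siCTCF, and HNRNPC differs widely between ICM 1 and ICM 2.

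HNRNPC (chr14:21209147-21269442), which forms tetramers on uridine tracts of nascent RNA, was 485 and 454 CPM in WT and 370.3 and 374 in siHMGB2. It was 338 CPM in ICM 1 but 808 in ICM 2, 858 and 877 under the label siSRRM2, 249.98 and 812 under siBANF1, and 587 to 685 in ICM 3-4 and siCTCF. In 8 of the 10 treated libraries it was above every untreated one, and ICM 1 and siBANF1 1 were the lowest of all. The log2 difference was 0.20 in ICM 1-2 (SE 0.46, edgeR adjusted p = 0.832), turning to -0.42 without ICM 2, and 0.26 in ICM 3-4 (SE 0.18, edgeR adjusted p = 0.266). Its 13 copies held 0.393% to 0.720% of its count in untreated libraries and 5.44% to 6.42% in ICM 3-4 and siCTCF. RALY, an HNRNPC relative, was 187 and 182 CPM in WT and 142 and 139.5 in ICM 3-4, a fall of 0.57 on the log2 scale (SE 0.15, edgeR adjusted p = 0.0182).

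HNRNPF and the H proteins bind runs of guanine through quasi-RRM domains and act on G-rich splice enhancers and silencers. HNRNPH1 (chr5:179614178-179634784) was 44.6 and 40.5 CPM in WT, 36.0 and 33.2 in siHMGB2, 13.5 and 16.0 in ICM 3-4 and 5.49 and 13.7 in ICM 1-2. Every treated library, up to 21.1 CPM in siCTCF 2, was below every untreated one. HNRNPH1 fell by 1.72 on the log2 scale in ICM 3-4 (SE 0.18, edgeR adjusted p = 0.00112). HNRNPH3 was 121 and 112 CPM in WT and 81.6 and 115 in ICM 3-4, which overlapped, but 14.8 and 32.5 in ICM 1-2. HNRNPF was 201 and 195 CPM in WT, 176 and 188 in ICM 3-4 and 124 and 219 in ICM 1-2, with no call in either comparison. HNRNPH2, at 0 CPM in both WT libraries, shares 16.3% of its exon bases with the read-through gene RPL36A-HNRNPH2, and such reads can be lost as ambiguous.

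The poly(C)-binding proteins PCBP1 and PCBP2, HNRNPK and KHSRP bind single-stranded RNA through KH domains, and KHSRP promotes decay of AU-rich mRNAs. None of these 4 passed the test in ICM 3-4 against WT, where log2 differences ran from -0.18 to 0.28. PCBP1 was 225 and 229 CPM in WT and 312 and 252 in ICM 3-4, yet 43.5 and 47.1 in ICM 1-2 and 35.5 and 32.1 under the label siSRRM2. KHSRP likewise was 177 and 167 CPM in WT, 229.6 and 247 in ICM 3-4 and 61.2 and 63.2 in ICM 1-2. Both genes were below WT in the first set and above it in the second by CPM, with siBANF1 1 the highest of the first set at 77.6 CPM for PCBP1 and 144 for KHSRP. PCBP2 split the first set by library: it was 178 CPM in ICM 1 and 260.4 in siBANF1 1, and 64.8 to 75.6 in the other 4, against 254 and 282 in WT. HNRNPK, at 659 and 629 CPM in WT and 653 and 642 in ICM 3-4, was 467 in ICM 1 and 885 in ICM 2. Exons of PCBP1 overlap an antisense gene over 52.2% of their bases, and those of PCBP2 overlap genes on the same strand over 13.8% and on the opposite strand over 18.8%. Whether reads were counted by strand is not given in the sources used here, so reads lost or gained through these overlaps cannot be told apart from a change of the gene.

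PTBP1 and PTBP2 are paralogs that bind pyrimidine tracts, and their exchange is the textbook switch of neuronal splicing. PTBP1 (chr19:797452-812312) was 315 and 293 CPM in WT, 279.8 and 321 in siHMGB2, 737 and 579.7 in ICM 3-4 and 695 and 543 in siCTCF. In the first set it was 122 CPM in ICM 1, 319.9 in ICM 2, 201 and 199.8 under the label siSRRM2 and 169 and 300.0 under siBANF1. Thus the 4 libraries of the second set were above all others, and the first set was within or below the untreated range. PTBP1 rose in ICM 3-4 by 0.93 on the log2 scale (SE 0.20, edgeR adjusted p = 0.0101), but the edgeR fit that shares the spread of all 14 libraries gave an adjusted p = 0.109. In ICM 1-2 the log2 difference was -0.56 (SE 0.47, edgeR adjusted p = 0.534).

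PTBP2 (chr1:96721784-96823739) was 18.3 and 18.6 CPM in WT, 13.7 and 14.3 in siHMGB2, 3.22 and 6.66 in ICM 3-4 and 5.19 and 6.20 in siCTCF. The first set lay between 13.0 and 24.2 CPM, around the untreated libraries. PTBP2 fell by 2.09 on the log2 scale in ICM 3-4 (SE 0.36, edgeR adjusted p = 0.00480), and the difference was 0.19 in ICM 1-2 (SE 0.27, edgeR adjusted p = 0.711). Per 100 PTBP1 counts there were 5.82 and 6.35 PTBP2 counts in WT, 4.89 and 4.45 in siHMGB2, 0.437 and 1.15 in ICM 3-4 and 0.747 and 1.14 in siCTCF. In the first set the same ratio was 16.2 in ICM 1 and 7.56 in ICM 2, 6.47 and 6.85 under the label siSRRM2, and 9.99 and 6.37 under siBANF1. The ratio depends on neither depth nor scaling, and the second set was below all other libraries. It was 8.57-fold lower in ICM 3-4 than in WT by geometric means (two-sided exact permutation p = 0.333, the smallest that 2 against 2 libraries can give), 5.29-fold without ICM 3 and 13.9-fold without ICM 4. PTBP3, the third paralog, was 69.7 and 80.2 CPM in WT, 65.4 and 85.5 in ICM 3-4 and 60.9 and 109.7 in ICM 1-2, with overlapping libraries throughout.

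**Figure D3:**
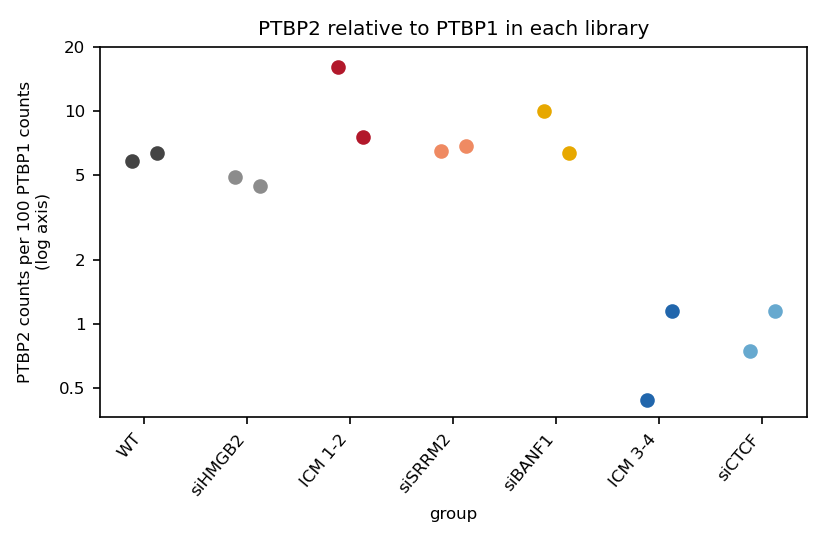
PTBP2 counts per 100 PTBP1 counts in each of the 14 libraries, on a log axis, by group. WT and siHMGB2 lie between 4.45 and 6.35, the ICM-treated libraries of the first set between 6.37 and 16.2, and ICM 3-4 and siCTCF between 0.437 and 1.15.

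HNRNPL and its paralog HNRNPLL bind CA-rich RNA. HNRNPLL, known from CD45 splicing in lymphocytes, was 58.2 and 59.8 CPM in WT and 36.2 to 72.5 over the treated libraries, with no call. HNRNPL was counted at only 0.266 to 3.14 CPM and HNRNPR, a close relative of SYNCRIP, at 0.101 to 1.65, although both are known as broadly expressed genes. The counts of these genes and of HNRNPH2 are treated as uncertain, since the annotation release behind them is not given in the sources used here. HNRNPM, which binds GU-rich RNA, was 214 and 218 CPM in WT, 260.2 and 320.2 in ICM 3-4 and 39.6 and 127 in ICM 1-2. SYNCRIP (hnRNP Q), which acts in mRNA transport and stability, fell by 0.56 on the log2 scale in ICM 3-4 (SE 0.15, edgeR adjusted p = 0.0211), from 245 and 241 CPM in WT to 176 and 199.9.

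HNRNPU, a nuclear matrix protein that binds chromatin-associated RNA, was 466 and 453 CPM in WT, 427 and 468 in ICM 3-4 and 335 and 492 in ICM 1-2. MATR3, a nuclear matrix protein that works with PTBP1, was 345 and 355 CPM in WT and 172 and 282 in ICM 3-4. It fell by 0.82 on the log2 scale (SE 0.24, edgeR adjusted p = 0.0287), while ICM 1-2 held 305 and 480.4 CPM, on both sides of WT. HNRNPUL1, which takes part in the DNA damage response, was 254 CPM in both WT libraries, 241 and 235 in ICM 3-4 and 107 and 121 in ICM 1-2. HNRNPUL2 averaged 33.8 CPM over the WT libraries and was 41.6 and 43.9 in ICM 3-4 and 15.3 and 17.4 in ICM 1-2. Of its exon bases, 44.1% are shared with the read-through gene HNRNPUL2-BSCL2.

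RBMX, an X-linked relative of the hnRNP G type, was 216 and 226 CPM in WT, 197 and 176 in siHMGB2, 91.2 and 98.1 in ICM 3-4 and 95.2 and 90.0 in siCTCF. In the first set it was 101 CPM in ICM 1, 174 in ICM 2, 197 and 195 under the label siSRRM2, and 91.0 and 181 under siBANF1. RBMX fell by 1.41 on the log2 scale in ICM 3-4 (SE 0.15, edgeR adjusted p = 0.00104), and its 8 copies held 5.52% to 13.4% of its count. TARDBP (TDP-43), which represses cryptic exons at UG repeats, was 155 and 150.3 CPM in WT, 216 and 262 in ICM 3-4, 239 and 265 in siCTCF and 54.5 to 104 in the first set. All second-set libraries were thus above WT and all first-set libraries below. TARDBP rose in ICM 3-4 by 0.46 on the log2 scale (SE 0.16, edgeR adjusted p = 0.0486), a call that was lost in 7 of 11 alternatives, and 28.99% of its exon bases lie in another gene on the same strand. ELAVL1 (HuR, chr19:7958573-8005641), which stabilises AU-rich mRNAs, was 102 and 97.7 CPM in WT, 104 and 106 in siHMGB2, 146 and 112 in ICM 3-4 and 59.1 and 93.9 in ICM 1-2. Its log2 difference from WT was 0.19 in ICM 3-4 (SE 0.19, edgeR adjusted p = 0.445) and -0.46 in ICM 1-2 (SE 0.29, edgeR adjusted p = 0.418).

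For ICM 3-4 against WT as a whole, 14 of the 31 genes were called at an adjusted p under 0.05 in edgeR, 2 higher and 12 lower, while 55.2% of the 15677 genes tested were called, 27.8% higher and 27.3% lower. The median log2 difference was -0.30 over the 31 genes and 0.0099 over all genes. The share of the 31 called was thus not above that of all genes. Scaling by total counts moved the median of all genes to 0.20 and their calls to 5142 higher of 8769, and gave 3 higher and 9 lower among the 31. The fit to all 14 libraries called 9 of the 31, all lower, against 30.3% of all genes, 16.0% lower. With WT 1 left out 5 of the 31 were called, against 33.0% of all genes, and with WT 2 left out 6, against 28.8%. HNRNPA1, PTBP2, HNRNPH1, RBMX and HNRNPD were called in all 11 alternatives. No WT library belongs to the second set, so treatment and set cannot be told apart in this comparison.

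**Figure D4:**
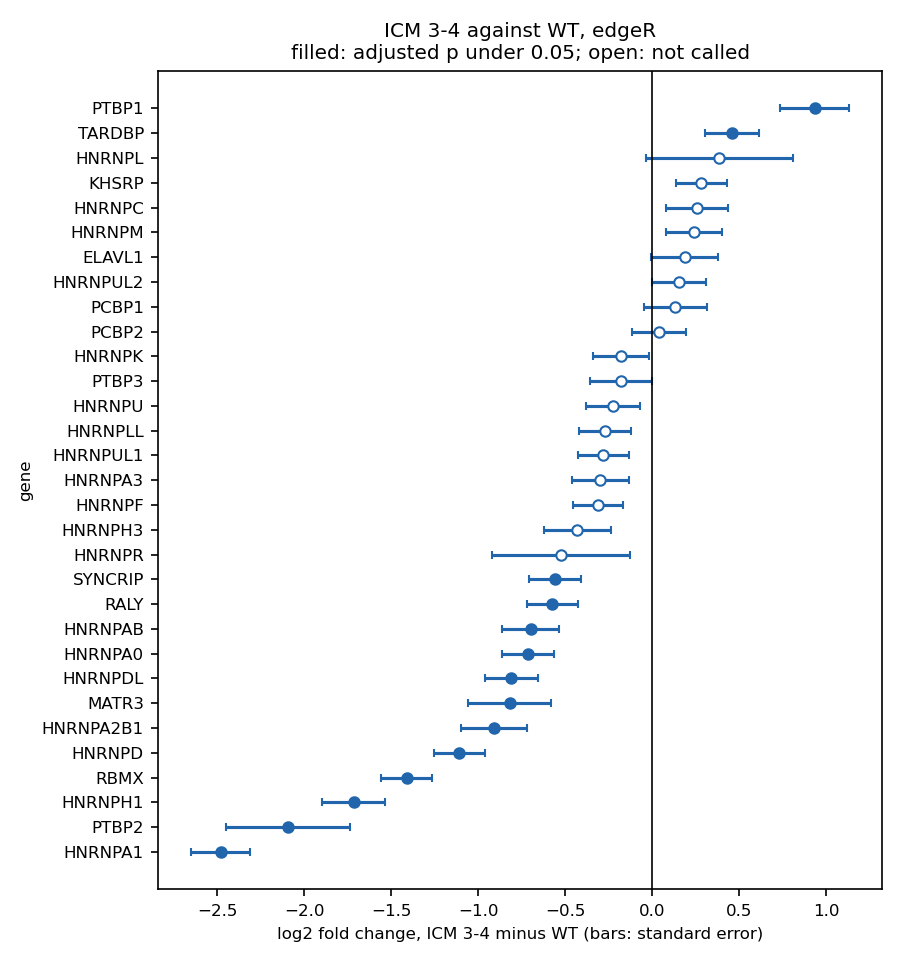
Log2 fold change of ICM 3-4 against WT for the 31 tested genes, with standard errors derived from the edgeR F statistic. Filled points passed an adjusted p under 0.05. PTBP1 and TARDBP are the 2 filled points above 0 and HNRNPA1, at -2.48, is the lowest of the 12 below.

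For ICM 1-2 against WT, edgeR called 0 of 16617 genes (0.0%) and 0 of the 31, although 15 of the 31 and 3664 of all genes had an unadjusted p under 0.05. The median log2 difference was -0.94 over the 31 genes and 0.091 over all genes, and 27 of the 31 were below WT. DESeq2 called 11 of the 31, all lower, against 11.5% of all genes, 6.12% lower. The edgeR fit to all 14 libraries called 15, all lower, against 13.5% of all genes, 6.87% lower. The count turned on the 2 ICM libraries: without ICM 1, 19 of the 31 were called, 2 higher and 17 lower, against 62.1% of all genes (5388 higher, 5350 lower). Without ICM 2, 24 were called, all lower, against 47.9% of all genes (4273 higher, 4116 lower). Each of these fits has 1 ICM library, whose spread is borrowed from WT. The libraries of this comparison also differed in kind. Small RNA genes took 6.06% and 3.19% of gene counts in ICM 1 and ICM 2 and at most 0.00835% in WT. Ambiguous reads were 4.43% and 6.73% in ICM 1 and ICM 2 and 1.72% and 1.62% in WT. These differences go with the treatment and cannot be told apart from it.

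Differences between ICM 1 and ICM 2 ran through most of the set. ICM 2 was above ICM 1 in 27 of the 31 genes and in 53.7% of all genes, and 20 of the 31 differed by more than 1.5-fold, as did 64.8% of all genes. The libraries labelled siBANF1 were divided in like manner, with replicate 2 above replicate 1 in 24 genes and 19 over 1.5-fold apart. In 26 genes the direction matched that of ICM 2 against ICM 1 (23 up, 3 down). Over 10697 genes, these replicate differences of siBANF1 and ICM 1-2 had a correlation of 0.86. Shares over all genes were counted for ICM 1 and ICM 2 only, so the other counts are not read as particular to the set. Over 1.5-fold there were 2 genes between ICM 3 and ICM 4, 1 between the WT, 1 between the siHMGB2 and 1 between the siCTCF libraries, and 0 between those labelled siSRRM2. HNRNPM, 39.6 and 127 CPM in ICM 1 and ICM 2, was 61.5 and 133 CPM in siBANF1 1 and 2, and PCBP2 went the other way in both. The median chi-square per gene between libraries, 0.455 from sampling alone, was 86.9 between ICM 1 and ICM 2 and 84.6 between the libraries labelled siBANF1, but 4.37 between ICM 2 and siBANF1 2. It was 1.17 between the libraries labelled siSRRM2 and 3.59 between the WT libraries.

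**Figure D5:**
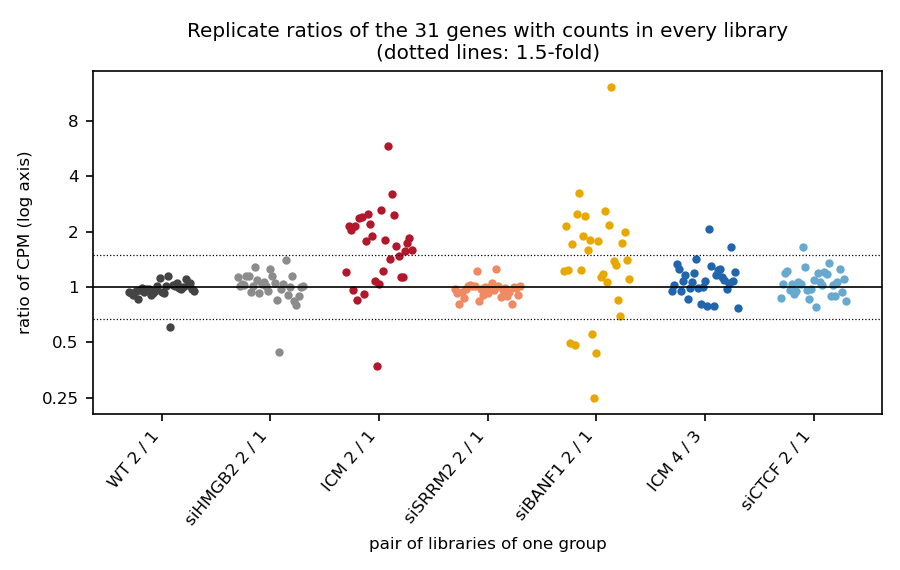
Each point is the CPM ratio of the 2 libraries of a group for 1 of the 31 genes, on a log axis with dotted lines at 1.5-fold. Ratios cluster at 1 except for ICM 2 over ICM 1, where 20 genes lie outside the dotted lines, and siBANF1 2 over siBANF1 1, where 19 do.

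In siHMGB2 against WT, 1668 of 15338 genes (10.9%) were called in edgeR, and 0 of the 31. Unadjusted edgeR p-values under 0.05 were found for 3 of the 31 and for 3662 of the 15338 genes, so the 31 did not stand out. The 3 were RALY (0.38, SE 0.15), HNRNPA1 (-0.33, SE 0.14) and PTBP2 (-0.33, SE 0.14) on the log2 scale. RALY was 200.1 and 258 CPM in siHMGB2 against 187 and 182 in WT, with an edgeR adjusted p = 0.131. DESeq2 called 1 of the 31, HNRNPA1 (lower, adjusted p = 0.0497, against 0.165 in edgeR), and 11.5% of all genes, 4.94% lower. HNRNPL had the lowest difference, -0.46 (SE 0.48), on about 1 CPM. The median log2 difference was -0.086 over the 31 genes and 0.0018 over all genes.

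In the libraries labelled siSRRM2 against ICM 1-2, edgeR called 0 of 16828 genes (0.0%) and 0 of the 31, with 2 of the 31 and 1488 of all genes at an unadjusted p under 0.05, and DESeq2 called 204 genes (1.21%) and 0 of the 31. The differences ran from -0.75 for PCBP2 (SE 0.58), at 75.6 and 75.4 CPM against 178 and 66.2, to 1.67 for HNRNPL (SE 0.86) on about 1 to 3 CPM. The 2 genes with an unadjusted p under 0.05 were HNRNPA3, at 33.8 and 31.9 against 54.6 and 52.9 CPM, and PTBP2, at 13.0 and 13.7 against 19.8 and 24.2. Without ICM 1, 22 of the 31 were called (7 higher, 15 lower), against 59.1% of all genes (5115 higher, 5271 lower). Without ICM 2, 29 were called (22 higher, 7 lower), against 67.8% (6289 higher, 6061 lower). Of the 20 genes called in both cases, 6 were higher in both, 6 lower in both and 8 turned direction with the ICM library that was kept, as did 47.9% of the 8080 such genes over all. The siSRRM2 mean was nearer to ICM 2 in 22 of the 31 genes, as it was in 60.3% of all genes.

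In the libraries labelled siBANF1 against ICM 1-2, edgeR called 0 of 17616 genes (0.0%) and 0 of the 31, with 24 of all genes and 0 of the 31 at an unadjusted p under 0.05, and DESeq2 called 0. HNRNPAB had the lowest difference (-1.01, SE 0.54), at 25.6 and 43.8 CPM against 45.0 and 97.0. KHSRP had the highest (0.76, SE 0.58), at 144 and 62.7 against 61.2 and 63.2 CPM, and it was -0.028 without siBANF1 1. In siCTCF against ICM 3-4, edgeR called 0 of 14704 genes (0.0%) and 0 of the 31, with 18 of all genes and 0 of the 31 at an unadjusted p under 0.05, and DESeq2 called 0. The 31 genes lay between -0.14 (HNRNPUL2, SE 0.16) and 0.31 (HNRNPL, SE 0.36) on the log2 scale, the narrowest range of the comparisons. PTBP1 was 695 and 543 CPM in siCTCF against 737 and 579.7 in ICM 3-4, and HNRNPA1 199 and 206 against 194 and 199. Both comparisons were tested without pairing, although replicate differences correlated at 0.86 for siBANF1 and 0.84 for siCTCF with those of their ICM libraries. An unpaired test counts such a shared difference as spread, so 0 calls here do not show that the genes were unchanged.

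Other RNA-processing genes were read from lists grouped by role for ICM 3-4 against WT. Of 13 SR proteins, which often oppose hnRNPs at exons, 10 were lower and 2 higher in edgeR, from SRSF6 (-2.21, SE 0.15) to SRSF8 (1.25, SE 0.16). Of 30 core spliceosome genes 14 were higher and 3 lower, from U2AF1 (-2.01, SE 0.52) to PRPF4 of the U4/U6 particle (1.80, SE 0.18). U2AF1 was counted at only 0.293 and 0.473 CPM in ICM 3-4 and 1.04 and 1.70 in WT. Of 4 paraspeckle genes RBM14 was higher (1.26, SE 0.21) and 2 were lower, with SFPQ at -1.16 (SE 0.15). Among 7 enzymes and carriers that modify or import hnRNPs, 3 were higher, with the arginine methyltransferase PRMT5 at 1.61 (SE 0.15), and 1 was lower, the kinase CLK1 (-1.43, SE 0.20). Of 18 other splicing regulators 4 were higher and 7 lower, from CELF2 (-2.51, SE 0.37) to KHDRBS3 (1.80, SE 0.22). Of 19 AU-rich element and stability genes 5 were higher and 6 lower, from ZFP36L2 (-2.33, SE 0.19) to PABPN1 (2.37, SE 0.26). All these counts stand beside 55.2% of genes called. In siHMGB2 against WT, 6 genes of the lists were called, with SRSF11 the lowest (-0.59, SE 0.13) and KHDRBS3 the highest (0.81, SE 0.19). They were 1 of 13 SR proteins, 1 of 29 core spliceosome genes, 2 of 18 other splicing regulators, 1 of 19 stability genes and 1 of 7 enzymes and carriers. Of all genes 10.9% were called in that comparison. In the other 4 comparisons 0 of the listed genes were called in edgeR, as were 0 of all genes.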

How the data were processed

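RNA was measured by paired-end RNA-seq of TruSeq libraries, per the labels' protocols. Each library has its own deposited file of integer read counts by gene symbol, and the submitters' processing notes name STAR 2.7.3a, HTSeq 0.12.4, DESeq2 1.36.0 and hg38, with no role or order. The annotation release and strand setting are not given in the sources used here. The 5 closing lines of each file, for reads given to no gene, held 12.8% to 41.8% of its reads and stayed out of totals and tests.

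From these counts, CPM was computed on total gene counts. Each comparison was tested on its own 4 libraries, since the spread of replicates differed severalfold between groups, with filterByExpr, TMM scaling and the quasi-likelihood test of edgeR 4.0.16 in R 4.3.3, and 2 residual degrees of freedom. Calls were made where the p-value, adjusted by Benjamini-Hochberg over all genes tested, was under 0.05. Log2 fold changes and their SE are on the TMM scale, ratios of CPM are not. The SE was derived as the absolute log2 fold change divided by the square root of the F statistic of the edgeR test. Alternatives were RLE and total-count scaling, no filter, DESeq2 1.42.0, a fit to all 14 libraries, an adjusted p under 0.01, a replicate block, ICM 3-4 as control, and each library left out in turn. Fits without the 639 small RNA genes, a crossed block, and the non-overlap counts on other scales or libraries were added after the data were seen. The scripts were checked on simulated data.

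Gene positions on hg38 are from RefSeq, and strands, exon lengths and overlaps are from GENCODE v29. Promoters are from RefSeq (GRCh38.p14). Named genes are the called ones up to the 8 with the largest change in a comparison, the highest and lowest where fewer than 2 were called, PTBP1, PTBP2, HNRNPA1, HNRNPA2B1, HNRNPD, ELAVL1 and TARDBP throughout, and in each list the called gene with the largest change in each direction. The genes of the set and all lists were chosen with earlier results of these data known, and 1 of the lists is not reported here. Sample groups follow the labels. Other steps used Python 3.11.15, pandas 2.3.3, scipy 1.17.1 and matplotlib 3.10.9.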

Additional observations from a re-analysis of the deposited data

Results flagged for a closer look

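Among the 4 ICM libraries, RBMX in ICM 2 stood apart from the others: it was 174 CPM against 91.2 to 101, and its gap to the nearest library was 0.882 of the range, above Dixon's 95% critical value. It was the only one of 31 genes so marked, and chance marks about 1 in 20.

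For 8 genes, both libraries of one ICM set lay above both WT libraries and both of the other set below, as was so for 7.83% of 19126 genes, and the difference between the sets was not tested. PCBP1 averaged 282 CPM in ICM 3-4, 227 in WT and 45.3 in ICM 1-2. PCBP2 averaged 313, 268 and 122 CPM in the same order, KHSRP 238 (from 172 in WT) and HNRNPM 290.2 (from 216). TARDBP averaged 239 CPM in ICM 3-4 and 80.1 in ICM 1-2, HNRNPUL2 42.8 and 16.4, and ELAVL1 129 and 76.5. PTBP2 went the other way, at 4.94 CPM in ICM 3-4, 18.5 in WT and 22.0 in ICM 1-2. On the TMM scale PCBP1, PCBP2 and ELAVL1 were no longer on opposite sides and PTBP1 was, which makes 6 genes, against 7.94% of all genes. The share of small RNA genes, 3.19% and 6.06% in ICM 1-2 and at most 0.00835% in WT and ICM 3-4, moved with the set, and its part in these differences was not tested.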

How the results depend on the processing

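For ICM 1-2 against WT, the 0 genes called in edgeR became 18 with RLE scaling, 26 with total-count scaling, 2658 with no filter, 1917 with DESeq2 and 2582 in the fit to all 14 libraries, and the 0 of the 31 genes became 11, 11 and 15 under the last 3. A library left out gave 320 to 10738 genes and 0 to 24 of the 31, and HNRNPC ran from -0.42 without ICM 2 to 0.62 without ICM 1. For ICM 3-4 against WT, an adjusted p under 0.01 left 5257 genes and 8 of the 31, the fit to all 14 libraries 9 of the 31, and a library left out 4697 to 10617 genes and 5 to 20 of the 31. For siHMGB2 against WT, 806 genes had an adjusted p under 0.01 and 0 were called in the fit to all 14 libraries, DESeq2 called 1 of the 31, and a library left out gave 815 to 2102 genes and 0 to 1 of the 31. HNRNPL ran from -1.15 without siHMGB2 1 to 0.016 without siHMGB2 2. For the libraries labelled siSRRM2, DESeq2 called 204 genes, the fit to all 14 libraries 34, and ICM 3-4 as control 8057 genes and 21 of the 31. A library left out gave 2 to 12350 genes and 0 to 29 of the 31, and PCBP2 ran from -1.29 without ICM 2 to 0.25 without ICM 1. For those labelled siBANF1, no filter gave 7 genes, ICM 3-4 as control 77 and a library left out 0 to 11. KHSRP was -1.005 with ICM 3-4 as control and ran from -0.028 without siBANF1 1 to 1.26 without siBANF1 2. Of the genes lower in every treated library, 15 were counted without the second set (12.5% of all genes), and 1 was higher without ICM 1 and siBANF1 1 (21.6% of all genes). A lone library is assumed to vary like the other group, and the cause of these changes was not tested.

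Replicate numbers are shared by 2 pairs at most and no label says what they mark. The correlation of replicate differences over 10697 genes was -0.23 for ICM 1-2 and WT, 0.16 for siHMGB2 and WT, 0.089 for siSRRM2, 0.86 for siBANF1 and 0.84 for siCTCF with their ICM libraries. With the replicate block, ICM 1-2 against WT gave 1183 genes and 7 of the 31, siHMGB2 against WT 1 of the 31 (RALY, edgeR adjusted p = 0.0498), siSRRM2 34 genes, siBANF1 1 and siCTCF 4. Crossed numbers gave 1071 genes and 7 of the 31 for ICM 1-2 against WT. For siCTCF, the block joined ICM 3 to replicate 1 and ICM 4 to replicate 2 by their order, since the labels share no numbers there. No block was fitted for ICM 3-4 against WT, which share no replicate numbers either.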
